A study of Homo sapiens with 23 samples.

Results

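Double-stranded RNA inside a cell is a sign of viral infection, and 9 human genes that read or answer it were followed here through xenograft tumours: the RNA receptors IFIH1 and DHX58, the kinase EIF2AK2, the oligoadenylate synthetase family OAS1, OAS2, OAS3 and OASL, and the helicases DDX60 and DDX60L. They were taken by gene symbol, and all 9 were found among the 27589 genes of the deposited table. The 9 were selected on the difference between knockout and wild-type tumours in these same data, so that difference is given below as a description without a test. The tumours were grown under the skin of the flank from SCC-13, a long-established human cell line of skin squamous cell carcinoma, in NCG mice, an immunodeficient strain made from NOD by disrupting Prkdc and Il2rg. The groups were hFWE WT tumours, 12 in all with 4 each from 5B2, 6C9 and 6C10, and hFWE KO tumours, 11 in all with 3 from 2F7 and 4 each from 2B8 and 1G10, where these codes are the names of lines. hFWE is human Flower, gene symbol CACFD1, a transmembrane protein. Every tumour was collected on day 26 after injection, from hosts that lack lymphocytes and received no treatment named in the labels. The labels state neither the origin of the lines nor whether 1 mouse carried several tumours, and p-values therefore speak only of the spread among these samples. Lines are nested in genotype, so a genotype and a line effect cannot be told apart except through the spread among the 3 lines of each genotype. In whole tumours, fewer cells of a type and less RNA per cell cannot be told apart either.

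MDA5, the product of IFIH1, forms filaments along long double-stranded RNA and signals through the adaptor MAVS to switch on interferon genes. LGP2, the product of DHX58, is a related helicase without the signalling domains that tunes this step. PKR, the product of EIF2AK2, phosphorylates the translation factor eIF2alpha when it binds double-stranded RNA, and OAS1, OAS2 and OAS3 make oligoadenylates, which serve as messenger molecules of the antiviral state. All 9 genes are known to be induced by interferon, and OASL also directly through IRF3. In skin, keratinocytes carry these sensors themselves and make interferons of their own.

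Estimated assigned reads were between 13082214 and 22093213 in 21 libraries. The other 2 were WT tumours of line 6C9, specimen 5532 with 7011069 reads and specimen 5533 with 2037751. Specimen 5533 also stood apart in its whole profile, its median correlation to the rest being 0.763 where the 21 had at least 0.945, so values are given with and without these 2 shallow libraries where they matter. CACFD1 was lower in the KO tumours, at 276 ± 58.9 (SD, n = 11), than in the WT tumours, at 373 ± 47.1 (SD, n = 12), and it was present in all of them with overlapping ranges. The summed level of 13 keratinocyte markers lay between 945532 and 1807590 in WT and between 1270930 and 1824270 in KO tumours, and none of the 13 was at 0 in any tumour. Of 12 macrophage markers 8 were in the table, with sums of 473 to 653 in WT and 422 to 652 in KO tumours and with the medians of CD163, AIF1, C1QB and MRC1 under 10. The sums of 5 dendritic cell markers were at most 43.0 in any tumour. Fibroblast markers, 10 genes, summed to between 2403 and 16918 in WT and between 3923 and 28397 in KO tumours, with specimen 5533 lowest. Single genes carry much of these sums, with WT and KO medians of 4162 and 4898 for COL1A1 and 452 and 446 for the macrophage marker CD68. A human line was grown in mice and the handling of mouse reads is not given, so these marker levels do not measure host cell content. A fit with the fibroblast marker level is given beside the differences below, and the part of the other markers was not tested.

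The promoters of these genes are known for interferon-stimulated response elements, and the sequence upstream of 6 of the 9 transcript starts is shown because it is the one feature here that does not depend on the tumours. The windows are from RefSeq on GRCh38.p14, read 5′ to 3′ on the strand of the gene. They end at the base before the annotated start, except for EIF2AK2, where the window runs 4 bases past it. The RefSeq start need not be the first base of the gene span given below. For EIF2AK2, OAS1, OAS3, DDX60 and DDX60L it lies inside that span. It is farthest inside for DDX60L, whose span on the minus strand begins at chr4:168537786. IFIH1 is chr2:162318685-162318843 on the minus strand, EIF2AK2 is chr2:37156977-37157130 on the minus strand, and OAS1 is chr12:112906812-112906961 on the plus strand. OAS3 is chr12:112938324-112938473 on the plus strand, DDX60 is chr4:168318753-168318902 on the minus strand and DDX60L is chr4:168480493-168480642 on the minus strand. No sequence is shown for DHX58, OAS2 and OASL. Capitals mark a core repeat of the response element, GAAANNGAAA, or the same repeat with 1 base between its repeats, GAAANGAAA, on either strand, and neighbouring matches run together.
IFIH1: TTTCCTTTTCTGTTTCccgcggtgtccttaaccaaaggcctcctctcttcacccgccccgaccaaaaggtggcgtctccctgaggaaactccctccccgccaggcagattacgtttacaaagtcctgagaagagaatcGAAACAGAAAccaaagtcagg
EIF2AK2: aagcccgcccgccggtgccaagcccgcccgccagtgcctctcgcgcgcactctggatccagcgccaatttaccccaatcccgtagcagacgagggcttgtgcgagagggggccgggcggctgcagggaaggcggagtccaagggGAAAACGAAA
OAS1: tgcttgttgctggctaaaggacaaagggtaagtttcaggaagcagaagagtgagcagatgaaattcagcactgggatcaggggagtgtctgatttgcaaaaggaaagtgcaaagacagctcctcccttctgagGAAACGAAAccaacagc
OAS3: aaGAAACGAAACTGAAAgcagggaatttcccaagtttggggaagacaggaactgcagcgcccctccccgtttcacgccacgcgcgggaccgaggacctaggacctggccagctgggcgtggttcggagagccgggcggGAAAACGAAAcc
DDX60: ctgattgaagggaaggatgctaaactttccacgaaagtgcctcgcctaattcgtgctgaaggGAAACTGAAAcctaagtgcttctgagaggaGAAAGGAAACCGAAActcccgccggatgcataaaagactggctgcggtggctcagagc
DDX60L: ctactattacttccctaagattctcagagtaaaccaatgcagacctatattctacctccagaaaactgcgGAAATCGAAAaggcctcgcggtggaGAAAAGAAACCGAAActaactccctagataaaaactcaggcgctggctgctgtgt

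GAAANNGAAA was found, on either strand within 250 bases before to 50 bases after the start, in 5 of the 6 windows, and in 3.57% of 35116 RefSeq promoters of that length. IFIH1 held 3 matches, a pair on the opposite strand that overlap each other, at positions -159 and -153, and one at -21. OAS3, DDX60 and DDX60L held 2 each and EIF2AK2 held 1, at -6, which spans the start. OAS1 held none of that spacing and 1 match to GAAANGAAA, at -17. That shorter spacing was looked for after the first result had been seen, and 3.12% of promoters hold it. In OAS3, DDX60 and DDX60L the shorter spacing also occurs and overlaps the longer one. The neighbours DDX60 and DDX60L had the most similar layout, with matches at -88 and -53 in DDX60 and at -80 and -50 in DDX60L. A gamma-activated sequence, TTCNNNGAA on either strand, was present in the windows of OAS1, at -168, and DDX60, at -124, and in 7.66% of promoters. These are matches of letters, and binding was not measured.

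**Figure D1:**
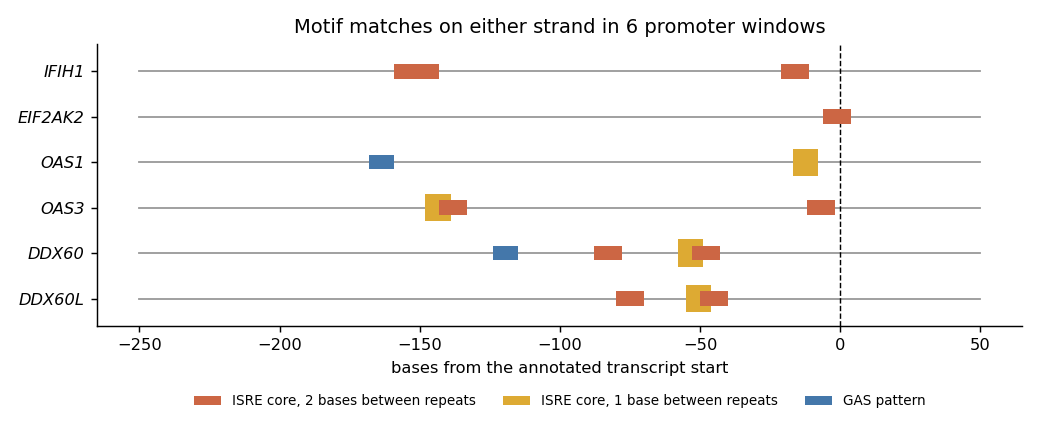
Positions of motif matches in the promoter windows of 6 members; the x axis is the distance in bases from the annotated transcript start (dashed line), each grey line is 1 window and each box is 1 match on either strand. Of the 6 windows, 5 hold the response element core with 2 bases between its repeats, and that of OAS1 holds the form with 1 base between them.

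Values are the deposited normalized read counts, and a comparison of levels between genes is given per kilobase of exon. On that scale OAS3 was the most abundant member, with a mean level of 117.5 per kilobase over the 23 tumours, followed by OAS1 with 97.2, OASL with 67.4, EIF2AK2 with 58.7 and OAS2 with 40.5. DDX60 with 27.9 and IFIH1 with 27.8 were next and did not differ beyond their spread, and DHX58 with 17.8 and DDX60L with 11.0 were lowest. In WT tumours OAS3 and OAS1 had 101 ± 29.3 and 93.2 ± 18.5 per kilobase (SD, n = 12), where OAS3 includes its low count in specimen 5533. In KO tumours they had 135 ± 29.2 and 102 ± 22.0 (SD, n = 11). Spread here is among tumours, and genes were not compared within the same tumour. OASL stood at 77.9 ± 19.5 per kilobase in WT tumours, beside 50.1 ± 12.1 for EIF2AK2. In KO tumours the pair did not differ beyond their spread, at 55.8 ± 17.1 and 68.1 ± 9.96 (SD, n = 11).

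IFIH1 (ENSG00000115267, chr2:162267074-162318684 on the table's hg38 coordinates, minus strand) encodes the receptor MDA5. Its lowest, median and highest normalized counts were 64.9, 120.3 and 167.6 in WT tumours and 132.0, 156.7 and 247.2 in KO tumours. The 4 tumours of line 5B2 had 141.9, 118.9, 64.9 and 113.3, and the 4 of line 2B8 had 186.3, 143.7, 247.2 and 170.3. Each of the 11 KO values exceeded the WT median, yet the groups overlapped, and 4 of the 11 were above every WT tumour. DHX58 (ENSG00000108771, chr17:42101404-42112714, minus strand), the gene of LGP2, was the least certain member. In WT tumours it ran from 0 through a median of 55.6 to 109.9, and in KO tumours from 52.5 through 67.7 to 124.6. The count of 0 was in specimen 5533, where the limit that 3 reads set is a normalized count of 27.4. Without both shallow libraries the lowest WT value was 35.7 and the WT mean was 68.9 ± 24.5 (SD, n = 10), against 75.8 ± 21.0 (SD, n = 11) in KO tumours.

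EIF2AK2 (ENSG00000055332, chr2:37099210-37157522, minus strand) encodes PKR, the kinase that halts translation. It ran from 219 through 584.9 to 692.3 in WT tumours and from 554.9 through 731.9 to 935.6 in KO tumours. The lowest value was again that of specimen 5533, and the next lowest WT tumour, specimen 5528 of line 5B2, had 391. The 4 tumours of line 6C10 had 602.0, 639.0, 562.4 and 692.3, which overlapped those of line 1G10, at 812.7, 697.1, 635.7 and 774.0. Of the 11 KO tumours 10 lay above the WT median and 7 above every WT tumour. The last bases of EIF2AK2, read on its own strand, overlap 35 exonic bases of GPATCH11 on the opposite strand. GPATCH11 had a mean count of 111 and a difference between KO and WT of -0.06 on the log2 scale (SE 0.10). The sources do not say if counting used the strand, so reads of such overlaps cannot be assigned.

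OAS1 (ENSG00000089127, chr12:112905856-112933219), OAS3 (ENSG00000111331, chr12:112938051-112976460) and OAS2 (ENSG00000111335, chr12:112978395-113011723) lie side by side on the plus strand and encode the enzymes that make oligoadenylates. OAS2 ran from 36.5 through 209 to 315 in WT tumours and from 200.5 through 302.0 to 476.9 in KO tumours. Its lowest WT value is an estimated 4 reads in specimen 5533, and without that specimen it was 120.6. The 4 tumours of line 2B8 had 383.4, 317.1, 476.9 and 421.0, all above every WT tumour, as was specimen 5538 of line 2F7 with 333.6, and the other KO tumours lay within the WT range. OAS3 ran from 137 through 893 to 1046 in WT tumours and from 669 through 1101 to 1410 in KO tumours. With specimen 5533 left out the WT tumours were close together, with a mean of 898 ± 106 (SD, n = 11), and 8 of 11 KO tumours lay above all of them. The 3 KO tumours inside the WT range came from the 3 different lines, specimen 5540 of 2F7 with 757, specimen 5543 of 2B8 with 1028 and specimen 5548 of 1G10 with 669. OAS1 ran from 338 through 444 to 669 in WT tumours and from 280.1 through 526.0 to 639.4 in KO tumours. No KO tumour lay above the WT range of OAS1, and the lowest of all 23 was a KO tumour, specimen 5549 of line 1G10.

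OASL (ENSG00000135114, chr12:121017763-121039242, minus strand) encodes a synthetase-like protein that has lost the enzyme activity and instead aids the receptor RIG-I. It was the member lower in KO tumours. The WT values ran from 154.6 through 298.1 to 365.8 and the KO values from 74.9 through 195.3 to 332.6. Lines 2F7, with 178.6, 208.7 and 195.3, and 2B8, with 173.9, 218.0, 201.1 and 174.8, were tight, while line 1G10 held both the lowest and the highest KO tumour, specimen 5549 with 74.9 and specimen 5548 with 333. Of the KO tumours 1 lay above the WT median, and the WT tumours 5529 of line 5B2, with 154.6, and 5533, with 173.6, were both below all but 1 of the KO values. Line 6C10 was the most even WT line, at 314 ± 18.9 (SD, n = 4).

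DDX60 (ENSG00000137628, chr4:168216291-168318883) and DDX60L (ENSG00000181381, chr4:168356735-168537786) are neighbours on the minus strand and encode related DExD/H-box helicases with antiviral activity. DDX60 ran from 36.5 through 163.3 to 186.5 in WT tumours and from 146.8 through 209.6 to 331.8 in KO tumours. The lowest WT value is an estimated 4 reads in specimen 5533, and without that specimen it was 91.9. The 3 tumours of line 2F7 had nearly the same value, 208.4, 209.6 and 207.9, and 10 of 11 KO tumours lay above every WT tumour, the exception being specimen 5548. DDX60L ran from 82.1 through 112.3 to 136.0 in WT tumours and from 111.3 through 163.0 to 196.3 in KO tumours. There too 10 of 11 lay above every WT tumour, and the exception was specimen 5540 of line 2F7. Of the stretches of 50 bases in the exons of DDX60, 0.618% also occur in DDX60L, and how reads in these were assigned is not known. DDX60L overlaps PALLD on the opposite strand over 40735 bases but in no exon, and PALLD, with a mean count of 2858, had a log2 difference of 0.39 (SE 0.18).

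**Figure D2:**
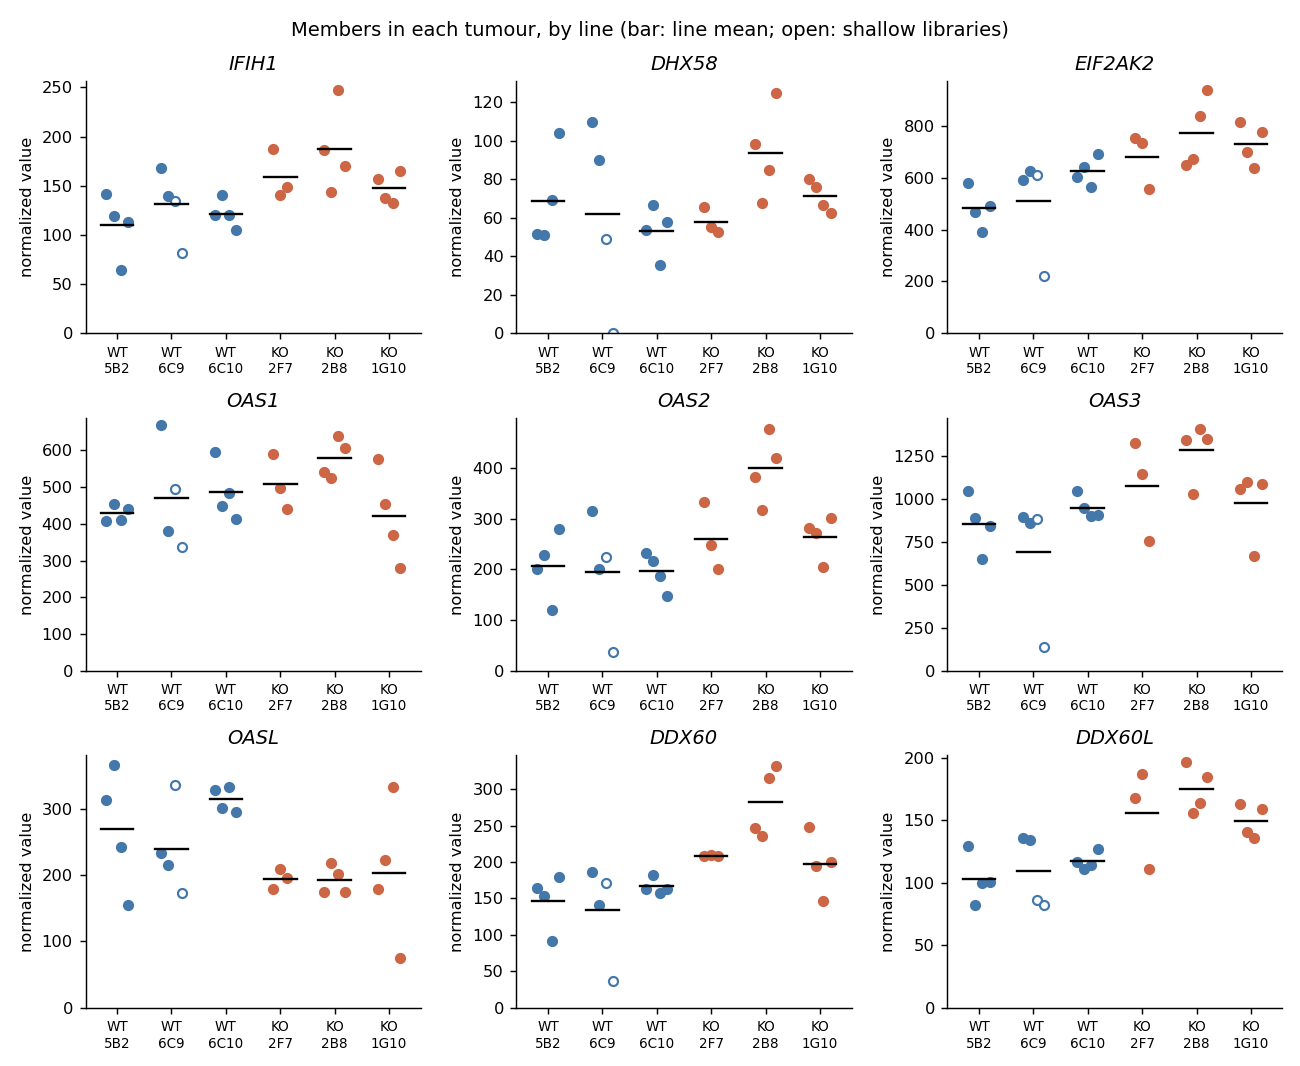
Normalized count of each member (y axis, 1 panel per gene, from 0) in each tumour by line (x axis; blue WT, orange KO, bar at the line mean, open symbols for the 2 shallow libraries). Line 2B8 has the highest mean for 8 members, and OASL alone has all 3 KO line means below those of the WT lines.

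On the log2(count + 1) scale the difference between KO and WT, from limma with line as a random block, was 0.47 (SE 0.14) for IFIH1, 0.71 (SE 0.52) for DHX58 and 0.48 (SE 0.15) for EIF2AK2. The block used 1 consensus correlation for all genes, 0.00766, so each SE rests almost wholly on the spread among tumours. The synthetases spread most, with 0.11 (SE 0.13) for OAS1, 0.74 (SE 0.26) for OAS2 and 0.51 (SE 0.25) for OAS3. OASL had -0.50 (SE 0.18). The helicases had 0.70 (SE 0.21) for DDX60 and 0.55 (SE 0.11) for DDX60L. The median of the 9 was 0.51, beside 0.03 over all 16063 genes tested, and 8 of 9 were above 0, beside 54.2% of all genes. Since these differences chose the genes, nothing is read from the counts. In this fit no member was called at an adjusted p under 0.05, and over all genes 0.00623% were called. With array quality weights 5 of the 9 members were called, beside 738 of 16063 genes. Those calls come from the contrast that chose the members. Part of the size came from the shallow libraries. Without both, the median of the 9 was 0.37 and DHX58, at 0.15, moved by more than its SE. OAS3 was then at 0.29, OAS2 at 0.54, DDX60 at 0.53, DDX60L at 0.47, IFIH1 at 0.42, EIF2AK2 at 0.37, OAS1 at 0.08 and OASL at -0.52, each of which moved by less than its SE with all tumours. Leaving out specimen 5533 alone gave 0.20 for DHX58 and 0.29 for OAS3. With the fibroblast marker level as a covariate, and all 23 tumours, the median was 0.40, DHX58 was 0.27 (SE 0.42) and OAS3 0.32 (SE 0.21).

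Seen line by line, the KO line means of IFIH1, EIF2AK2, OAS2, OAS3, DDX60 and DDX60L were above all 3 WT line means, as for 9.77% of all genes, and those of OASL were below all 3, as for 8.87%. For OAS1 and DHX58 they overlapped. These ranks include the shallow libraries of line 6C9, and that of IFIH1 leans on them. Without specimen 5533 the mean count of IFIH1 in 6C9 was 147.4, beside 147.8 in KO line 1G10. The deeper 6C9 specimens 5530 and 5531 had 167.6 and 140.0, and the shallow 5532 and 5533 had 134.6 and 82.2. IFIH1 was also the only member with every KO tumour above the WT median, as for 2.41% of genes, and none had every KO tumour below it, as for 2.76%. Against the mean of the WT lines the median difference of the 9 was 0.42 for line 2F7, 0.69 for line 2B8 and 0.46 for line 1G10, where the medians over all genes were 0.03, 0.04 and 0.02. Line 2B8 stood highest, with 1.13 for OAS2, 1.02 for DHX58 and 1.00 for DDX60. OASL was the steadiest, with -0.45, -0.47 and -0.57 in the 3 lines. OAS1 went both ways, with 0.16, 0.35 and -0.16, and its overall difference was -0.02 when line 2B8 was left out.

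**Figure D3:**
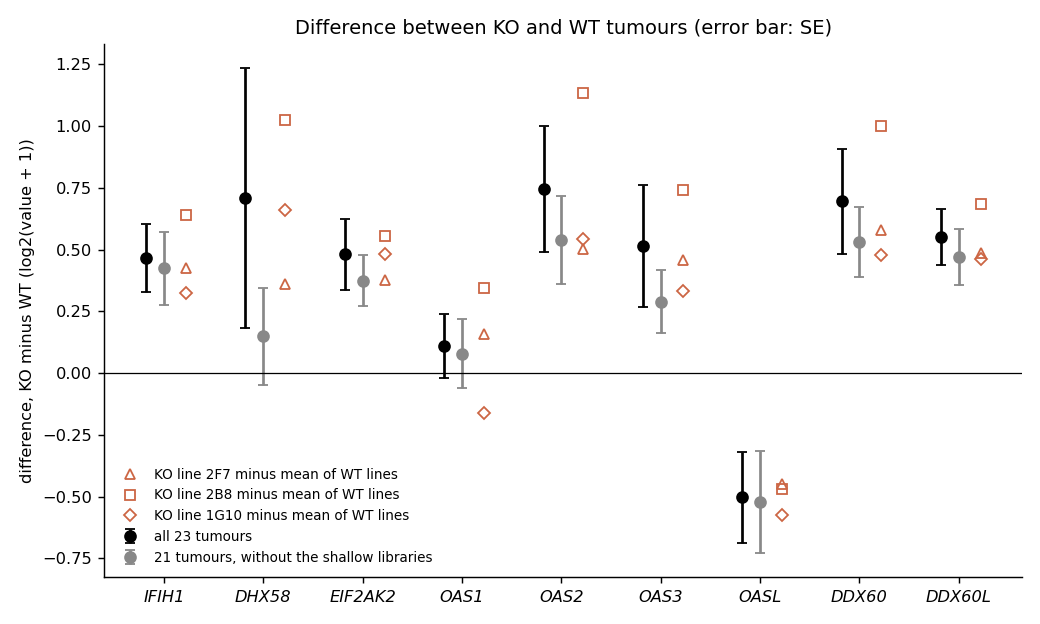
Difference between KO and WT tumours on the log2(count + 1) scale (y axis) for each member (x axis), with all 23 tumours (black) and without the 2 shallow libraries (grey); bars are SE, and open symbols are single KO lines minus the mean of the WT lines. DHX58 drops from 0.71 to 0.15 without the shallow libraries, whereas OASL stays near -0.50 in both and in every KO line.

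The count of members above their WT median summarises each tumour, and it was taken over the 8 members other than OASL. The members were chosen on KO against WT, and OASL, the member lower in KO tumours, is left out. High counts in KO tumours thus follow from the choice, and the counts only describe how single tumours vary. All 4 tumours of line 2B8 had 8 of 8. In line 2F7 the counts were 8, 7 and 2, and in line 1G10 they were 8, 8, 4 and 7. WT tumours were mixed, from 0 in specimen 5533 and 1 in specimen 5528 to 7 in specimen 5535 and 8 in specimen 5530. The KO tumour 5540 thus had fewer of the 8 above the WT median than most WT tumours, and the WT tumours 5530 and 5535 had 8 and 7, the counts found in 9 of the 11 KO tumours.

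Lines of the same genotype give a comparison that took no part in choosing the genes. By limma's F test none of the 9 differed among WT lines, with adjusted p between 0.512 and 0.8292, beside 1 call among 16063 genes (0.00623%). None had an unadjusted p under 0.05 there either, as 10.3% of genes did. None differed among KO lines either, with every adjusted p at 1 and 0 calls among all genes; unadjusted, 356 genes or 2.22% had a p under 0.05, and again no member did. A p that misses the threshold does not show that lines are alike. Among KO lines the range of the line means on the log2 scale was widest for DHX58, at 0.66, and OAS2, at 0.63. Among WT lines it was widest for DHX58, at 1.33, and OAS3, at 0.78, and without the shallow libraries these were 0.92 and 0.17. Lines of 1 genotype form 6 pairs. For 1G10 minus 2B8 OAS1 had a difference of -0.51 (SE 0.20), with limma's p at 0.0216 before and 1 after adjustment, the one unadjusted p under 0.05 of any member in any pair.

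Whether the members move together was asked within each genotype, where the difference that chose them plays no part. Each of the 36 pairs was correlated across the 12 WT and the 11 KO tumours, 72 relations in all, with two-sided permutation tests. In KO tumours the 28 pairs without OASL all had a Pearson r above 0, from 0.37 to 0.89 with a median of 0.63. OAS2 led the pairs that passed the threshold: with OAS3 r was 0.89 and rho 0.82 (permutation p = 0.00033 and 0.00331, adjusted p = 0.013 and 0.0779), with DDX60 r was 0.83 and rho 0.73 (p = 0.0018 and 0.0145, adjusted p = 0.0301 and 0.0956), and with IFIH1 r was 0.82 and rho 0.82 (p = 0.00136 and 0.0037, adjusted p = 0.0301 and 0.0779). OAS3 with DDX60L was the other, with r 0.79 and rho 0.79 (permutation p = 0.00407 and 0.00529, adjusted p = 0.0366 and 0.0779). Without the 2 tumours farthest from the median of the first gene these 4 values of r were 0.84, 0.85, 0.76 and 0.55. With 3 or 4 tumours a line is too small for values of its own, and the permutations moved tumours freely between lines. After subtracting line means the median over the 28 pairs was 0.52. OAS2 with DDX60 then had r 0.63 (permutation adjusted p = 0.108) and did not pass. OAS2 with OAS3 (r 0.92), OAS2 with IFIH1 (r 0.79) and OAS3 with DDX60L (r 0.73) still passed for r. Their permutation adjusted p for r ran from 0.00101 to 0.0355. OASL stood apart: 7 of its 8 pairs in KO tumours had an r below 0, with a median of -0.26, and none passed the threshold.

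WT tumours gave a similar median at first, 0.66 over the 28 pairs, with 4 pairs past the threshold. These were OAS3 with DDX60 (r 0.96, rho 0.48), OAS2 with DDX60 (r 0.96, rho 0.76), EIF2AK2 with DDX60 (r 0.93, rho 0.47) and EIF2AK2 with OAS3 (r 0.92, rho 0.57), with permutation adjusted p between 0.013 and 0.0366 for r and between 0.0779 and 0.218 for rho. With line means left in they rest on few tumours, since without the 2 tumours farthest from the median r was 0.04, 0.54, 0.03 and 0.25. After subtracting line means, with the shallow libraries kept, all 4 passed for r and rho. Their permutation adjusted p was 0.00072 for r and 0.00864 to 0.0143 for rho, and r was 0.83, 0.87, 0.87 and 0.88 without the 2 farthest. Of the 28 pairs 15 then passed for r and 7 for both in WT tumours, beside 6 and 2 in KO tumours. With line means left in but without the 2 shallow libraries, the median over the 28 pairs was 0.41 and none of them passed. One other pair then did, in the opposite direction: DHX58 and OASL had r -0.84 and rho -0.93 over 10 WT tumours (permutation p = 0.0017 and 0.00028, adjusted p = 0.0324 and 0.0202), and r was -0.96 without the 2 farthest. In that set of 72 the KO relation of OAS3 with DDX60L had a permutation adjusted p of 0.0586 for r. With all 12 WT tumours the pair of DHX58 and OASL had r 0.27 and rho -0.55 (permutation p = 0.392 and 0.0701, adjusted p = 0.421 and 0.166), and in KO tumours r was -0.01.

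**Figure D4:**
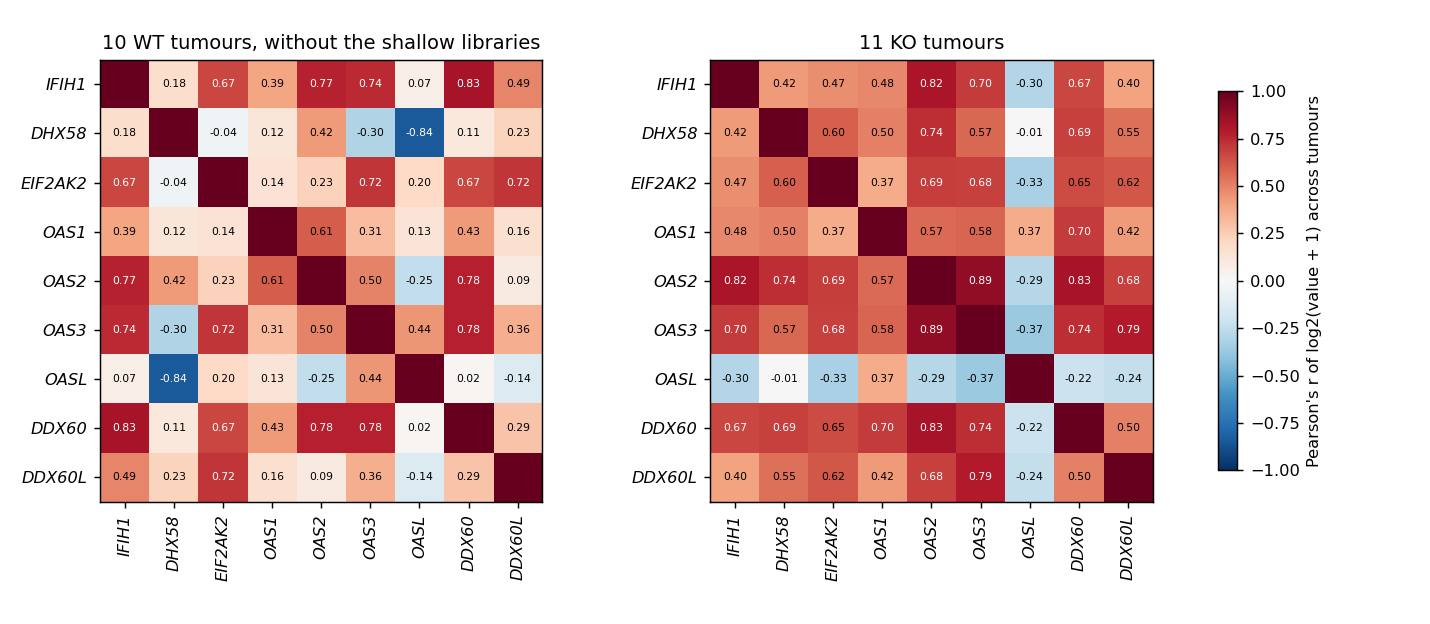
Pearson's r of log2(count + 1) between members across the 10 WT tumours without the shallow libraries (left) and across the 11 KO tumours (right); both axes list the members and the colour runs from -1 to 1. The KO panel is positive for all 28 pairs without OASL, and the OASL row is mostly below 0; in the WT panel DHX58 with OASL reaches -0.84.

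OASL was also set against late keratinocyte differentiation. The relation was noticed in these tumours before the level was defined, so it is a description and carries no p. The level is the mean log2(count + 1) of 12 genes of the cornified layers, among them the keratins KRT1 and KRT10, the envelope proteins LORICRIN and FLG and the protease CASP14. In the 12 WT tumours OASL had r 0.82 and rho 0.77 with it, and r 0.69 without the 2 farthest tumours. Without the shallow libraries r was 0.92 and rho 0.89 in 10 WT tumours. In the 11 KO tumours r was 0.85 and rho 0.58. Specimen 5549 had both the lowest level, 10.23, and the lowest OASL of the KO tumours, and the KO relation rests on few tumours, since r was 0.52 without the 2 farthest. For the other 8 members r with this level ran from -0.20 to 0.16 in WT tumours and from -0.44 to 0.43 in KO tumours. Their rho ran from -0.45 to 0.66 in WT tumours, and in KO tumours it was below 0 for all 8, from -0.69 to -0.24. Leaving out the 2 farthest KO tumours, r was also below 0 for all 8, from -0.88 to -0.33. The highest KO r, 0.43, was that of OAS1, with rho -0.25. Without the shallow libraries it ran from -0.80 to 0.26 in WT tumours, and the lowest was that of DHX58, with rho -0.79. In KO tumours DHX58 had r -0.25, and -0.88 without the 2 farthest tumours. Whether OASL differs from the other members in this was not tested. The level itself ran from 12.77 to 14.16 in WT tumours and from 10.23 to 13.62 in KO tumours.

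**Figure D5:**
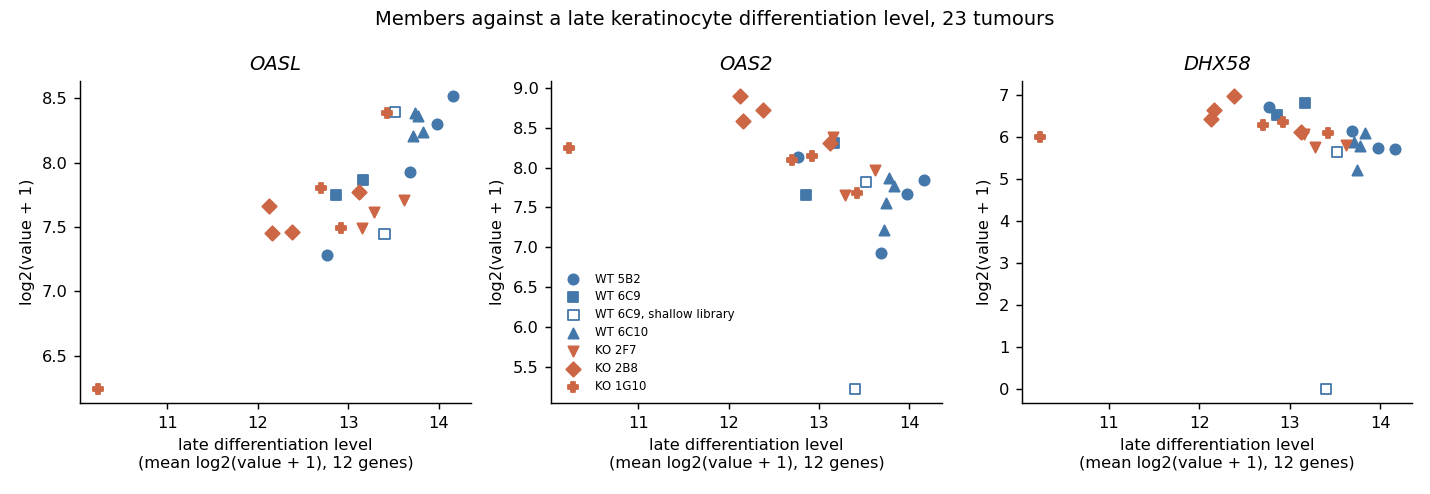
log2(count + 1) of OASL, OAS2 and DHX58 (y axes) against the late differentiation level, the mean log2(count + 1) of 12 genes (x axis), with 1 symbol per tumour coded by line (blue WT, orange KO, open for shallow libraries). OASL climbs with the level in both genotypes, with r 0.82 in WT and 0.85 in KO tumours, and r was -0.07 and -0.44 for OAS2. For DHX58 r was -0.09 in WT tumours, -0.80 there without the shallow libraries, and -0.25 in KO tumours.

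CACFD1 itself and the fibroblast marker level were set against each member in the same way. No member passed with CACFD1 within either genotype, where r ran from -0.44 to 0.54. In WT tumours without the shallow libraries the 8 members other than OASL all had an r below 0 with CACFD1, from -0.62 to -0.25 with a median of -0.48, and OASL had 0.48, and again none passed. The fibroblast marker level passed with DHX58 in WT tumours (r 0.90, rho 0.78, permutation p = 0.00078 and 0.0045, adjusted p = 0.0196 and 0.109). Without the shallow libraries it passed with OASL instead (r -0.83, rho -0.73, permutation p = 0.00212 and 0.0201, adjusted p = 0.0392 and 0.254). Specimen 5533 has both the lowest fibroblast marker level and the DHX58 count of 0.

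The rest of the pathway was read from 9 lists, in which no tested gene was called between KO and WT or among lines. Upstream, 21 of 22 other double-stranded RNA sensors and adaptors were tested, and 16 had a difference above 0 with a median of 0.17, which was 0.04 without the shallow libraries. RIG-I, listed as DDX58, the receptor for short triphosphate RNA, had 0.28 (SE 0.14), the endosomal receptor TLR3 0.27 (SE 0.13), the adaptor MAVS 0.50 (SE 0.17) and the RNA editor ADAR 0.21 (SE 0.10). The most abundant of the list, DDX3X, had 0.18 (SE 0.15). The partners below PKR and the synthetases, 12 genes, were split, with 5 above and 7 below 0 and a median of -0.01. ABCE1, a ribosome recycling factor also known as an inhibitor in the oligoadenylate branch, had -0.04 (SE 0.09). The other eIF2alpha kinases had -0.01 (SE 0.05) for EIF2AK1, 0.18 (SE 0.11) for EIF2AK3 and 0.05 (SE 0.06) for EIF2AK4, while ATF4, the factor whose translation the phosphorylation favours, had -0.24 (SE 0.08).

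Of 9 interferon ligands 1 was in the table, IFNE, an interferon of epithelia, with 0.46 (SE 0.30) on the log2 scale and mean counts of 34.6 ± 18.9 in the WT and 48.0 ± 30.1 in the KO tumours (SD). IFNB1, IFNK and IFNL1 were not analysed here. Among 12 receptor and JAK-STAT genes 9 were above 0, with a median of 0.16 and 0.07 without the shallow libraries. STAT2 had 0.24 (SE 0.13) and IRF9 0.25 (SE 0.11), which join in the factor that interferon activates, and the abundant JAK1 and IFNGR1 had 0.23 and -0.04. Of the interferon regulatory factors 5 were tested and 2 were above 0, with -0.06 (SE 0.11) for IRF3 and 0.26 (SE 0.13) for IRF7. The 10 negative regulators had a median of 0.12, with 0.19 (SE 0.18) for the protease USP18, 0.43 (SE 0.25) for the ubiquitin-like ISG15, -0.32 for NLRX1 and -0.10 for PIAS1. DNA-sensing genes, 6 in all, had a median of 0.02, with 0.00 (SE 0.12) for the sensor CGAS and 0.05 (SE 0.09) for the adaptor STING1, and IFI16 had 0.28. Of the chemokines CCL5 was tested, with -0.03, and CXCL10 was below the filter, at 5.29 ± 4.42 in the WT and 10.6 ± 10.8 in the KO tumours (SD).

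The other interferon-stimulated antiviral genes, 40 in all, are induced by interferon as the members are. Of these 38 had a difference above 0, with a median of 0.43, and without the shallow libraries 39 did, with a median of 0.37. MX1, a GTPase that traps viral nucleocapsids, had 0.94 (SE 0.28), and its counts ran from 67.5 through 187.1 to 490.8 in WT and from 174.2 through 295.2 to 821.4 in KO tumours, so the groups overlapped. IFIT1, which binds foreign RNA ends, had 0.66 (SE 0.26), and the abundant LGALS3BP and IFITM3 had 0.22 each. These differences come from the same contrast as the choice of the members and are given side by side with theirs.

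Genes with the most similar pattern were ranked by r with the mean z-score of the 9 members after line means were subtracted, which takes the genotype difference out. Over all 23 tumours the first 10 were NBPF20, ABCF3, VPS11, VCPIP1, FOXK1, TRAPPC12, KLHDC7B, RBL2, TRIM14 and MCL1, with r from 0.95 to 0.93, and TRIM14 is the one that the 9 lists hold. Of the members DHX58, EIF2AK2, OAS2, OAS3 and DDX60 had their lowest value of the 23 tumours in specimen 5533. Without the shallow libraries, over 21 tumours, the order was MX1 with 0.91, CDC42EP4 with 0.84, NMT1, TRIM14, ADAR with 0.81, VPS11, FOXK1, GRIN3B and RPS6KB1 among the first 10, and VPS11, TRIM14 and FOXK1 were in both sets. OASL alone, a ranking added after the data were seen, gave a different set over the same 21 tumours: MARCHF3 and GM2A with 0.97, GGT6 with 0.96, then ELOVL7, GSDMA, LYPD3, SDR16C5, POF1B and, with 0.93, UGCG among the first 10. On that measure LORICRIN had 0.88 and KRT10 0.84 with OASL. The ranking of the other 8 members without OASL began with MX1 at 0.92 and ADAR at 0.83. These values describe tumours that share libraries and carry no p.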

How the data were processed

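Poly(A) RNA of 23 tumours was sequenced from directional libraries made from 500 ng of RNA, per the labels' protocols. The deposited table gives 1 normalized signal per gene and tumour, read counts scaled by the authors. Per the submitters' processing notes, STAR, DESeq2 and hg38 were used, with roles not stated. Strand use in counting and the handling of mouse reads are not given in the sources used here. Low values were multiples of 1 step for 69.8% to 83.1% of values up to 20 reads, within 0.02 reads, so whole reads were not recovered; depth is the total divided by the step. Genes with a mean of at least 10 were tested, 16063 in all, as log2(value + 1), which understates the change of low genes, with limma 3.58.1 in R 4.3.3, a trended prior and Benjamini-Hochberg adjustment at 0.05. KO against WT had line as a random block (consensus correlation 0.00766). Line means were compared in a second fit with 1 mean per line. Correlations used 100000 permutations. Exon length is the union of GENCODE 29 exons. The code was tested on simulated data. The members and lists were chosen with earlier results of these data known. Named are all members, fixed pathway genes, the 2 most abundant genes of each list and the 10 genes most like the members. A few genes that this takes in are left unreported. Alternatives covered pseudocounts, filters, scaling, weights, a fibroblast covariate, the block, and leaving out tumours or lines.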

Additional observations from a re-analysis of the deposited data

Results flagged for a closer look

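Within each line of 4 tumours, a tumour was singled out by its gap to the nearest other, as a share of the line's range. The mark was Dixon's 95% critical value, and 4 of 50 line and gene combinations passed it, where chance gives about 1 in 20. The 50 go beyond the 9 members, and they share tumours, so the combinations are not independent. EIF2AK2 was 219 in specimen 5533 of WT 6C9, with the nearest other tumour of the line at 592 and a gap of 0.92 of the range. OAS3 was 137 in the same library, with the nearest at 862 and a gap of 0.957. That library is the shallowest, with 2037751 reads, and whether its depth sets these values was not tested. OAS3 was also 1028 in specimen 5543 of KO 2B8, with the nearest at 1347, and 669 in specimen 5548 of KO 1G10, with the nearest at 1060. Both of these KO libraries are among the 21 deeper ones.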

How the results depend on the processing

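The members' differences between KO and WT kept their direction in 350 of 351 alternatives, and the exception was OAS1, at -0.022 without line 2B8. Line tests kept their side in 333 of 333 alternatives among WT and 333 of 333 among KO lines. Genes called between KO and WT, 1 with all tumours, were 738 with array quality weights and 0 with the same total, with TMM scaling, with the fibroblast covariate, without the shallow libraries and without line 5B2, 6C10, 2B8 or 1G10, and ran from 0 to 2 when 1 tumour was left out, the 2 being without specimen 5533. Genes called among WT lines, 1 in all, were 0 without line 6C9, 6C10 or 2B8 and ran from 0 to 2 when 1 tumour was left out. The cause was not tested. Relations between members past the threshold, 8 in all, were 4 without the shallow libraries and 21 with line means subtracted. Of the 10 most similar genes, 3 were shared without the shallow libraries and 1 with Spearman's rho. The median difference of all genes was 0.03, and 0.08 with the same total and 0.05 with TMM scaling. No paired analysis was possible because specimen numbers are not shared between groups. Depth limits DHX58 most, with 0 reads in specimen 5533.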
